A study of Mus musculus with 6 samples.

Results

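Integrins and laminins are the receptors and ligands of cell adhesion to matrix, and RNA of their subunit genes was measured in trigeminal ganglia of mice, which hold the sensory neurons that serve the face. Members were all rows of the deposited table whose symbol starts with Itga or Itgb, apart from Itgb1bp genes and Itgbl1, or names a laminin alpha, beta or gamma chain. These letters selected 27 of 13673 genes. One of them, Itgb3bp, encodes a centromere protein and not an adhesion receptor, so 26 subunits remained: 19 integrin chains and 7 laminin chains. Tissue came from wild-type mice that had received CFA (complete Freund's adjuvant, killed mycobacteria in oil that provoke inflammation) or saline, and was taken on day 3, with 3 libraries in each group. The labels give neurons and glia as the cell types. No source used here names the injection site. Nothing ties a library to a single animal, so p-values measure the spread between libraries.

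An integrin is a heterodimer of an alpha and a beta chain that spans the membrane and joins ligands outside the cell to the actin cytoskeleton. Leukocyte integrins such as αMβ2, built from Itgam and Itgb2, let myeloid cells and lymphocytes hold to endothelium and matrix. Matrix receptors bind laminins, collagens, or ligands with an RGD peptide such as fibronectin and vitronectin. Laminins are trimers of an alpha, a beta and a gamma chain that build basement membranes, and in peripheral nerve the sheaths of Schwann cells and satellite glia lie on such membranes.

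FPKM is a gene's fragment count scaled by transcript length and library size, and log2 fold changes here set CFA over saline after 1 FPKM was added to each value, which understates the change of genes with low FPKM. None of the 18 subunits with a mean of at least 1 FPKM was called between CFA and saline by limma with Benjamini-Hochberg adjustment (adjusted p 0.478 or above), where 7 of 12238 genes tested were called, or 0.0572%. At an unadjusted p below 0.05 there were 2 of the 18, Itgb3 and Itga7, both higher with CFA, against 8.32% of all genes tested in either direction and 5.37% in that direction. The 8 subunits below 1 FPKM were tested in a fit over every row. There Itgb7 was also below 0.05 unadjusted, against 8.43% of all rows, and no subunit was called (adjusted p 0.475 or above), against 0.0512% of all rows. The groups did not overlap for 5 of 26 subunits (19.2%), against 14.7% of all rows: Itgb7, Itgb3 and Itga7 were higher with CFA (8.07% of all rows), and Itga4 and Itga3 lower (6.63%). The larger group mean was at least 0.501 FPKM in each row, and Itga4 met that floor through its saline mean alone. The log2 fold change was above 0 for 16 of 26 subunits, and for 51.1% of all rows. Permuting 3 libraries against 3 exactly can reach no p under 0.1, and single genes were therefore tested with limma alone.

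The subunit list written for these families had 38 names, and 26 had a row. The other 12 were not analysed here, among them Itgal, Itgax and Itgae of leukocytes, Itga8, Itga10 and Itgb6, and the laminin chains Lama1 and Lama3. Median log2 fold changes were 0.17 for 4 leukocyte integrins, 0.04 for 15 matrix-receptor chains and −0.01 for 7 laminin chains, beside 0.00 over all rows. The leukocyte median was −0.0054 without CFA replicate 2, 0.021 without saline replicate 1, 0.058 without saline replicate 2, and 0.32 without saline replicate 3. Groups did not overlap for 2 of 4 leukocyte chains, which lay in opposite directions, for 3 of 15 matrix-receptor chains and for 0 of 7 laminin chains, beside 14.7% of all rows. Of those leukocyte chains, Itga4 met the floor of the deposited rows through saline alone. Levels below are FPKM in libraries 1, 2 and 3 of each group, with means ± SD (n = 3).

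FPKM totals ran from 261183 to 275152 per library and are not depths. Rank correlations were 0.957 to 0.972 within groups and 0.954 to 0.973 between them. Sensory neuron markers summed to 2647 to 2958 FPKM in the CFA libraries and 2207 to 2902 in the saline libraries, and Schwann cell markers to 2002 to 2312 in CFA and 1987 to 2770 in saline libraries. Oligodendrocyte markers, of central root tissue, summed to 334 to 390 FPKM with CFA and 216 to 288 with saline, and astrocyte markers to 140 to 154 with CFA and 89.9 to 105 with saline. Satellite glia markers summed to 1016 to 1479 FPKM with CFA and 762 to 891 with saline. Of 3 choroid plexus markers, Ttr averaged 225 FPKM with CFA and 2.08 with saline, while Kl averaged 0.693 with CFA and 0.354 with saline, and Clic6 averaged 1.28 with CFA and 0.688 with saline. Pituitary hormone genes summed to 233 to 2835 FPKM with CFA and 189 to 4798 with saline. CFA replicate 3 held the highest value of 12 of 26 subunits, and of 27.4% of all rows. Saline replicate 3 held the highest of 7, and of 26.9% of all rows. The part of these library differences in the values below was not tested.

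Promoters are shown for Itgam, the defining chain of myeloid integrins, and Itgb7, a leukocyte chain whose groups did not overlap. The windows are RefSeq promoters (GRCm38.p6) of 300 bases, from 250 before to 50 after the gene start, read 5′ to 3′ on the gene's strand. Capitals mark GAGGAA or its reverse complement TTCCTC, the core of sites bound by PU.1, a transcription factor of myeloid cells and B cells known to act on the promoters of Itgam and Itgb2 in human cells. Itgam lies at chr7:128062390-128062689 (plus strand) and Itgb7 at chr15:102231886-102232185 (minus strand).
Itgam: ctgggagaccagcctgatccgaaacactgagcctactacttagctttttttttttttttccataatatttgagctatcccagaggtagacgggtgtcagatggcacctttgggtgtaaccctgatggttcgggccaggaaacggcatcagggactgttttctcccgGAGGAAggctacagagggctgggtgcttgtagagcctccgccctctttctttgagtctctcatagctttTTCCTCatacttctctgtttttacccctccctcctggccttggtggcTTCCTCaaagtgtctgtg
Itgb7: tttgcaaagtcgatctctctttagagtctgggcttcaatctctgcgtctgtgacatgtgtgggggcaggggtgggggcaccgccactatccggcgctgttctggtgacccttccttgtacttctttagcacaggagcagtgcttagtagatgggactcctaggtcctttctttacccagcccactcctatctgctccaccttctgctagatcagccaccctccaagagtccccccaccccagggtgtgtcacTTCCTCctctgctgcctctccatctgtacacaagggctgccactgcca
The letters occurred at 3 places in the Itgam window and at 1 in the Itgb7 window. They occurred in 28.3% of the 32851 promoter windows of the table and in 12 of the 19 windows that matched 18 subunits. A match is a run of letters and not a measured site.

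Among leukocyte integrins, Itgam and Itgb2 were high in 1 library of each group. Itgam, the αM chain (CD11b) of neutrophils, monocytes and macrophages on chromosome 7 at 128062640 to 128118491 (GRCm38), was listed at 1.12, 1.97 and 1.19 FPKM with CFA, against 0.579, 0.690 and 1.97 with saline. Itgb2, the β2 chain (CD18) that all leukocyte β2 integrins share, on chromosome 10 at 77530252 to 77565708, stood at 1.26, 2.35 and 1.13 FPKM with CFA, against 0.976, 1.04 and 2.37 with saline. Both genes were highest in CFA replicate 2 and saline replicate 3, and the groups overlapped.

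Those were also the libraries with the highest neutrophil marker sums. The 9 neutrophil markers, none listed at 0, summed to 60.0, 332 and 68.1 FPKM in CFA replicates 1, 2 and 3, against 61.6, 85.3 and 583 in saline replicates 1, 2 and 3. S100a9, a calcium-binding protein that fills neutrophil cytosol, reached 132 FPKM in CFA replicate 2 and 203 in saline replicate 3, and 23.7 to 36.7 in the other libraries. The parts of neutrophil and macrophage RNA in the Itgam and Itgb2 levels were not tested. In bulk tissue, fewer cells of a type and less RNA per cell cannot be told apart. The 11 macrophage markers summed to 117 to 133 FPKM with CFA and 88.2 to 92.4 with saline, without overlap, and most of that sum came from the complement genes C1qa, C1qb and C1qc. Single markers differed: 6 of 11, among them C1qa, C1qb and C1qc, were higher with CFA without overlap, beside 8.07% of all rows. Cd163, a scavenger receptor, averaged 1.41 FPKM with CFA and 2.24 with saline, with overlap. Of the 11 markers, only Cd68, Adgre1, Cd163 and Lyve1 were highest in CFA replicate 2 and saline replicate 3 within their groups, as Itgam and Itgb2 were. Aif1 and Mrc1 were highest in CFA replicate 2 but in saline replicates 1 and 2, respectively. Csf1r and Cx3cr1 were highest among CFA libraries in replicate 3, and C1qa, C1qb and C1qc in replicate 1. Adgre1, a surface receptor of macrophages, stood at 1.31, 2.12 and 1.27 FPKM with CFA, against 1.28, 1.49 and 1.52 with saline.

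Over all 6 libraries Itgam averaged 1.43 ± 0.471 FPKM with CFA and 1.08 ± 0.775 with saline (log2 fold change 0.27, SE 0.268, limma adjusted p = 0.771). Without CFA replicate 2 and saline replicate 3, Itgam stood at 1.12 and 1.19 FPKM with CFA against 0.579 and 0.690 with saline, with a log2 fold change of 0.40 (SE 0.12, unadjusted p = 0.0219, limma adjusted p = 0.443). That omission was chosen after the values were seen and took out the highest Itgam value of each group. Its SE and p-value are therefore no valid test. Leaving out saline replicate 3 alone gave a log2 fold change of 0.55, and leaving out saline replicate 1 gave 0.10. Itgb2 averaged 1.58 ± 0.67 FPKM with CFA and 1.46 ± 0.787 with saline (log2 fold change 0.08, SE 0.263, limma adjusted p = 0.945), which became −0.12 when CFA replicate 2 was left out and 0.33 without saline replicate 3. Itgam made up 45.6% to 51.3% of the summed FPKM of this pair in CFA libraries and 37.2% to 45.4% in saline libraries. The groups just failed to overlap, beside 14.7% of all single-gene rows without overlap, and the difference was not tested. Exons of Itgam overlap Gm49368 on the same strand, and reads of both could be split between them.

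**Figure D1:**
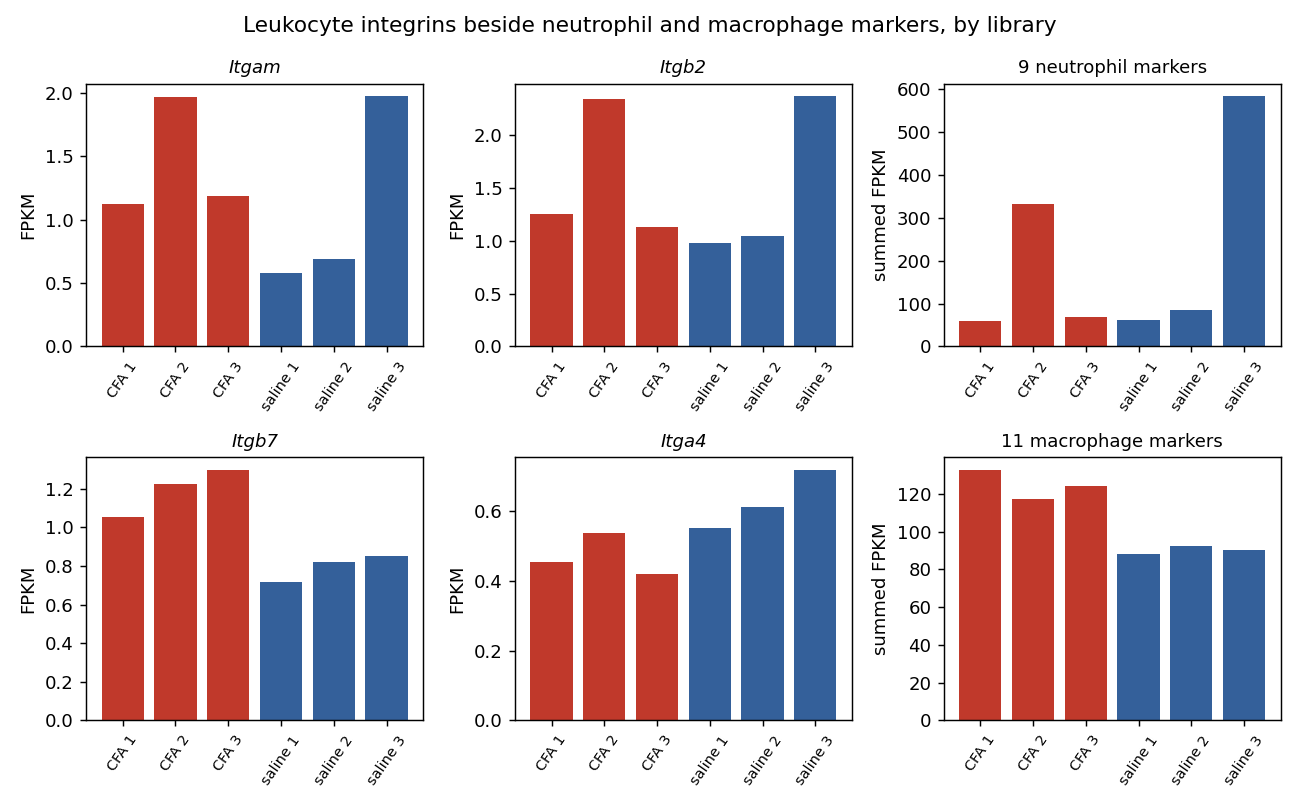
FPKM of 4 leukocyte integrin genes and summed FPKM of 9 neutrophil and 11 macrophage markers, 1 bar per library (red CFA, blue saline, y axes from 0). Itgam, Itgb2 and the neutrophil markers peak in CFA 2 and saline 3, whereas Itgb7 and the macrophage sum, mostly C1qa, C1qb and C1qc, are higher in all 3 CFA libraries and Itga4 is lower.

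Itgb7, the β7 chain of lymphocytes and some myeloid cells, pairs with α4 or αE and directs cells to gut tissue. It lies on chromosome 15 at 102215995 to 102231935 and was listed at 1.06, 1.23 and 1.30 FPKM with CFA, against 0.716, 0.819 and 0.851 with saline. Each CFA library lay above each saline library, a 1.501-fold difference of means. Its overall mean of 0.994 FPKM fell just short of the filter, and over all rows its log2 fold change was 0.29 (SE 0.0894, unadjusted p = 0.0156, limma adjusted p = 0.483).

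Values of the α4 partner lay the other way. Itga4, which also serves VCAM-1 and fibronectin binding by mononuclear leukocytes, stood at 0.456, 0.537 and 0.421 FPKM with CFA, against 0.552, 0.613 and 0.719 with saline (log2 fold change −0.15, SE 0.0868, limma adjusted p = 0.681 over all rows). The groups did not overlap, and saline replicate 3 was highest. Itga4 averaged 0.471 FPKM with CFA and 0.628 with saline, where the larger group mean was at least 0.501 FPKM in each row. It thus has a row only through saline, the group where it was higher, and its lack of overlap is no independent support for a difference. Exons of Itga4 overlap Cerkl on the other strand. Of 10 T and B lymphocyte markers only Cd79a and Cd79b had rows, and their sums ran from 1.85 to 2.78 FPKM with CFA and from 1.57 to 3.37 with saline, with overlap of the groups. Saline replicate 3 was highest in that sum, and the part of lymphocyte or macrophage RNA in Itgb7 and Itga4 was not tested.

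Ligands of leukocyte integrins showed no difference that passed. Of 7 with a row, Icam1 and Icam2 lay below 1 FPKM, and of the 5 tested none was below 0.05 unadjusted, against 8.32% of all genes tested. Jam2, a junction protein, had the smallest p, at 7.85, 8.98 and 7.49 FPKM with CFA against 8.07, 8.80 and 10.3 with saline (limma adjusted p = 0.733).

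Among matrix receptors, Itgb1 was by far the most abundant subunit. This β1 chain pairs with most laminin, collagen and fibronectin receptor alpha chains, and it was listed at 78.6, 87.6 and 84.5 FPKM with CFA, against 81.8, 86.2 and 88.5 with saline. The groups overlapped, and the log2 fold change was −0.03 (SE 0.0738, limma adjusted p = 0.907). Its share of integrin beta FPKM was 65.4% to 68.8% in CFA libraries and 69.4% to 71.3% in saline libraries, without overlap. Without the leukocyte chains the shares overlapped, at 66.7% to 70.8% in CFA and 70.4% to 73.2% in saline libraries, as did the share of all integrin FPKM, at 49.1% to 55.1% in CFA and 53.8% to 56.8% in saline libraries. This ratio within a library also moves with the other beta chains, and its difference was not tested.

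**Figure D2:**
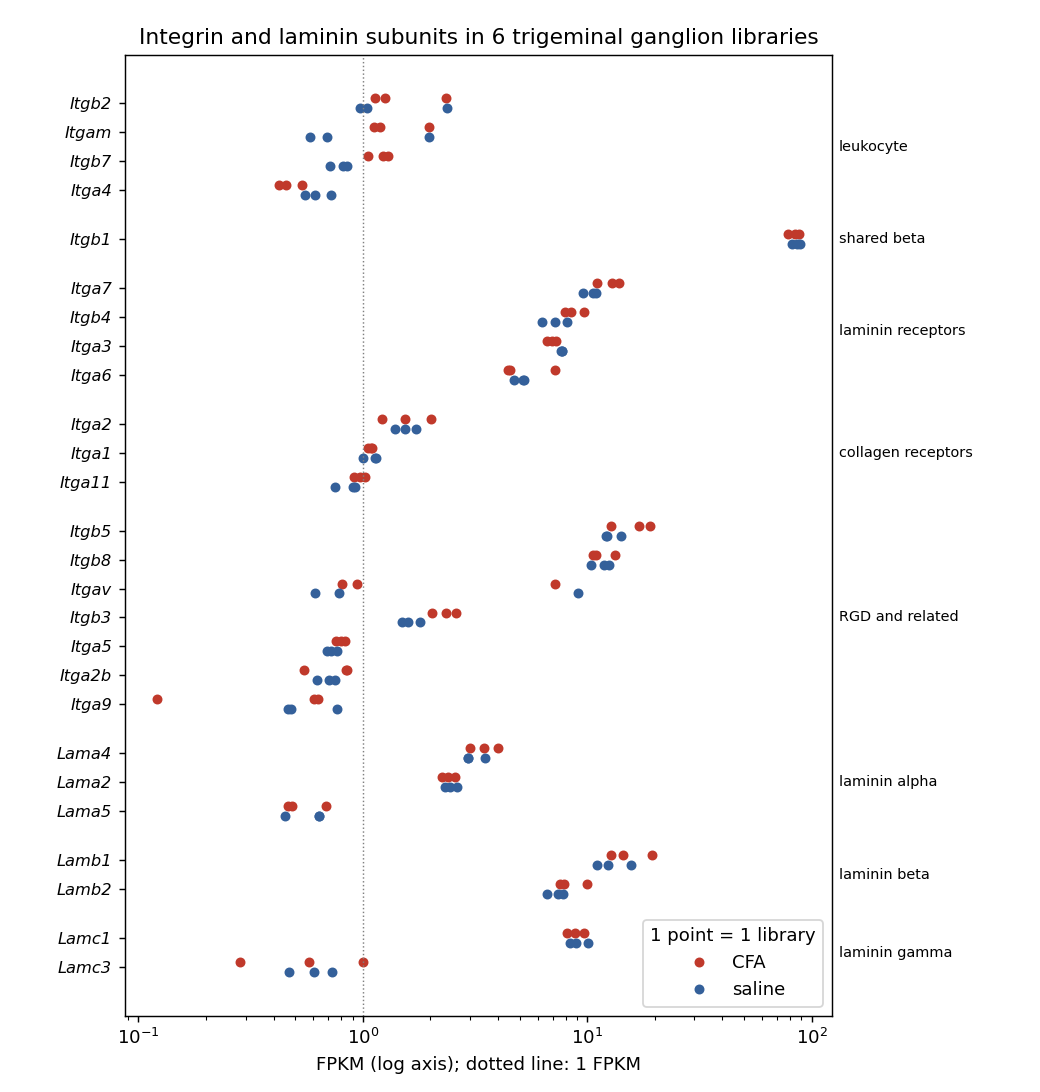
FPKM of the 26 subunits (log x axis), 1 point per library, CFA in red above saline in blue, by class. Itgb1 stands alone at 78.6 to 88.5 FPKM, most leukocyte and collagen-receptor chains lie near 1, and the points of Itgav split into low and high libraries within each group.

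Among receptors of laminin, Itga7 was the most abundant chain. Itga7, the α7 chain of skeletal muscle and of Schwann cells and regrowing neurons, was listed at 12.8, 10.99 and 13.8 FPKM with CFA, against 10.9, 10.6 and 9.58 with saline. The groups just failed to overlap, with CFA replicate 2 close to saline replicate 1. Its log2 fold change was 0.25 (SE 0.103, unadjusted p = 0.0499, limma adjusted p = 0.599) and was 0.13 without the 2 libraries numbered 3. Itga7 lies on chromosome 10 at 128933818 to 128958282, where its exons overlap Mettl7b on the other strand. Skeletal muscle markers summed to 3.08 to 55.7 FPKM with CFA and 6.03 to 214 with saline. They were highest in saline replicate 3, the library lowest in Itga7. Among CFA libraries, replicate 3 was highest and replicate 2 lowest in both the muscle sum and Itga7. The part of muscle RNA in the Itga7 level was not tested.

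Itgb4, the partner of α6 in epithelia and in myelinating Schwann cells, stood at 8.42, 7.97 and 9.68 FPKM with CFA, against 8.08, 7.21 and 6.26 with saline (log2 fold change 0.25, limma adjusted p = 0.621). CFA replicate 2 lay below saline replicate 1. Itga6 stood at 4.45, 4.52 and 7.21 FPKM with CFA, against 4.72, 5.18 and 5.21 with saline. CFA replicate 3 alone was above the saline range, and without it the log2 fold change of 0.06 became −0.14.

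Itga3, the α3 chain that binds laminin-332 and laminin-511, was lower in each CFA library, at 6.97, 6.63 and 7.27 FPKM with CFA against 7.72, 7.75 and 7.60 with saline. The saline values lay close together (SD 0.0759 FPKM), and the difference of 0.905-fold did not pass (log2 fold change −0.13, SE 0.0744, unadjusted p = 0.132, limma adjusted p = 0.681).

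Collagen-receptor chains were low in all libraries. Itga2, the α2 chain of platelets and epithelia, was the highest of them, at 1.22, 2.002 and 1.53 FPKM with CFA against 1.39, 1.53 and 1.73 with saline. Itga1 lay at 1.06 to 1.10 FPKM with CFA and 0.999 to 1.14 with saline, and Itga11, of fibroblasts, at 0.917 to 1.02 FPKM with CFA and 0.749 to 0.918 with saline. All 3 overlapped between groups, with log2 fold changes between −0.01 and 0.09.

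Among receptors of RGD ligands, Itgb3 had the smallest p of all subunits. This β3 chain forms the vitronectin receptor with αv and the platelet fibrinogen receptor with αIIb, and it lies on chromosome 11 at 104608000 to 104670476. It was listed at 2.34, 2.04 and 2.59 FPKM with CFA, against 1.80, 1.59 and 1.49 with saline. Each CFA library was above each saline library, a 1.43-fold difference (log2 fold change 0.34, SE 0.103, unadjusted p = 0.0147, limma adjusted p = 0.478). Without the 2 libraries numbered 3 the unadjusted p was 0.103.

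Its platelet partner Itga2b overlapped between groups. The αIIb chain stood at 0.846, 0.544 and 0.843 FPKM with CFA, against 0.704, 0.750 and 0.625 with saline. Of 6 platelet markers 2 had rows: Pf4, also made by macrophages, at 8.27, 8.57 and 6.83 FPKM with CFA against 4.597, 5.22 and 5.06 with saline, and Gp1bb at 1.69, 10.1 and 1.65 FPKM with CFA against 1.91, 1.60 and 1.27 with saline. Itgb3 was lowest among CFA libraries in replicate 2, the library with the most Gp1bb. In saline libraries both genes fell from replicate 1 to replicate 3. Pf4, like Itgb3, was higher in each CFA library than in each saline library, but their orders within CFA were reversed. The part of platelet or macrophage RNA in the Itgb3 level was not tested. The ligand vitronectin, Vtn, was higher in each CFA library, at 23.7, 22.1 and 25.9 FPKM with CFA against 16.3, 18.7 and 19.6 with saline (log2 fold change 0.37, unadjusted p = 0.00723, limma adjusted p = 0.378). Of 10 tested ligands of this class, Vtn was the 1 below 0.05 unadjusted, beside 8.32% of all genes tested.

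Itgb5 and Itgb8, β chains that pair with αv and take part in activating latent TGF-beta (Itgb8) or in binding vitronectin (Itgb5), were the highest RGD-receptor chains. Itgb5 stood at 17.03, 12.8 and 19.1 FPKM with CFA, against 14.1, 12.1 and 12.2 with saline (log2 fold change 0.31, SE 0.15, limma adjusted p = 0.624), and CFA replicate 2 fell within the saline range. Itgb8 averaged 11.6 ± 1.51 FPKM with CFA and 11.6 ± 1.08 with saline, with a log2 fold change of 0.00 (SE 0.114). Itga5 and Itga9, which bind fibronectin and tenascin among others, were below 1 FPKM in all libraries. Itga9 was at 0.121 FPKM in CFA replicate 1 and 0.462 to 0.770 in the other libraries.

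Itgav, the αv chain and common partner of β3, β5 and β8, split the libraries in another way. It was listed at 0.803, 0.937 and 7.15 FPKM with CFA, against 0.614, 9.10 and 0.782 with saline. CFA replicate 3 and saline replicate 2 were thus at least 7.62 times the highest of the other 4 libraries, and each group held 1 high and 2 low values. Among all 13673 rows this pattern, chosen after its values were seen, was widest in Itgav, which had a gap of 2.07 on the log2(FPKM + 1) scale, the next gene 1.49, and 3 rows in all reached 1. The β partners showed no such split, with Itgb8 at 10.4 to 13.3 FPKM throughout. Itgav lies on chromosome 2 at 83724397 to 83806916, has 9 annotated transcripts and overlaps an exon of Gm13684 on the other strand. Its log2 fold change of −0.01 had an SE of 0.869. It was −0.72 without CFA replicate 3 and 0.85 without saline replicate 2, so a difference between groups was not detectable.

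**Figure D3:**
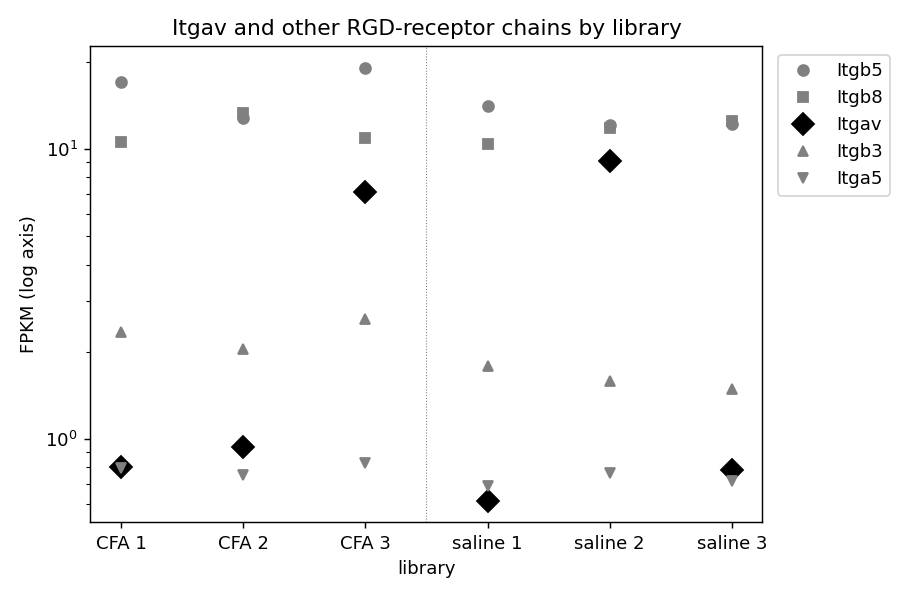
FPKM (log y axis) of Itgav (black diamonds) and 4 other RGD-receptor chains (grey) in the 3 CFA and 3 saline libraries. Itgav is at 7.15 FPKM in CFA 3 and 9.10 in saline 2 and below 1 in the other 4 libraries, while the grey chains show no such split.

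Intracellular partners of integrins gave no call. Of 22 tested adaptors and signalling genes, such as talins, kindlins, ILK and FAK, none was below 0.05 unadjusted, against 8.32% of all genes tested. Pxn, the focal adhesion scaffold paxillin, had the smallest p at 2.42, 2.95 and 3.34 FPKM with CFA against 6.90, 3.31 and 3.91 with saline (limma adjusted p = 0.621), where saline replicate 1 stood apart and CFA replicate 3 lay within the saline range.

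**Figure D4:**
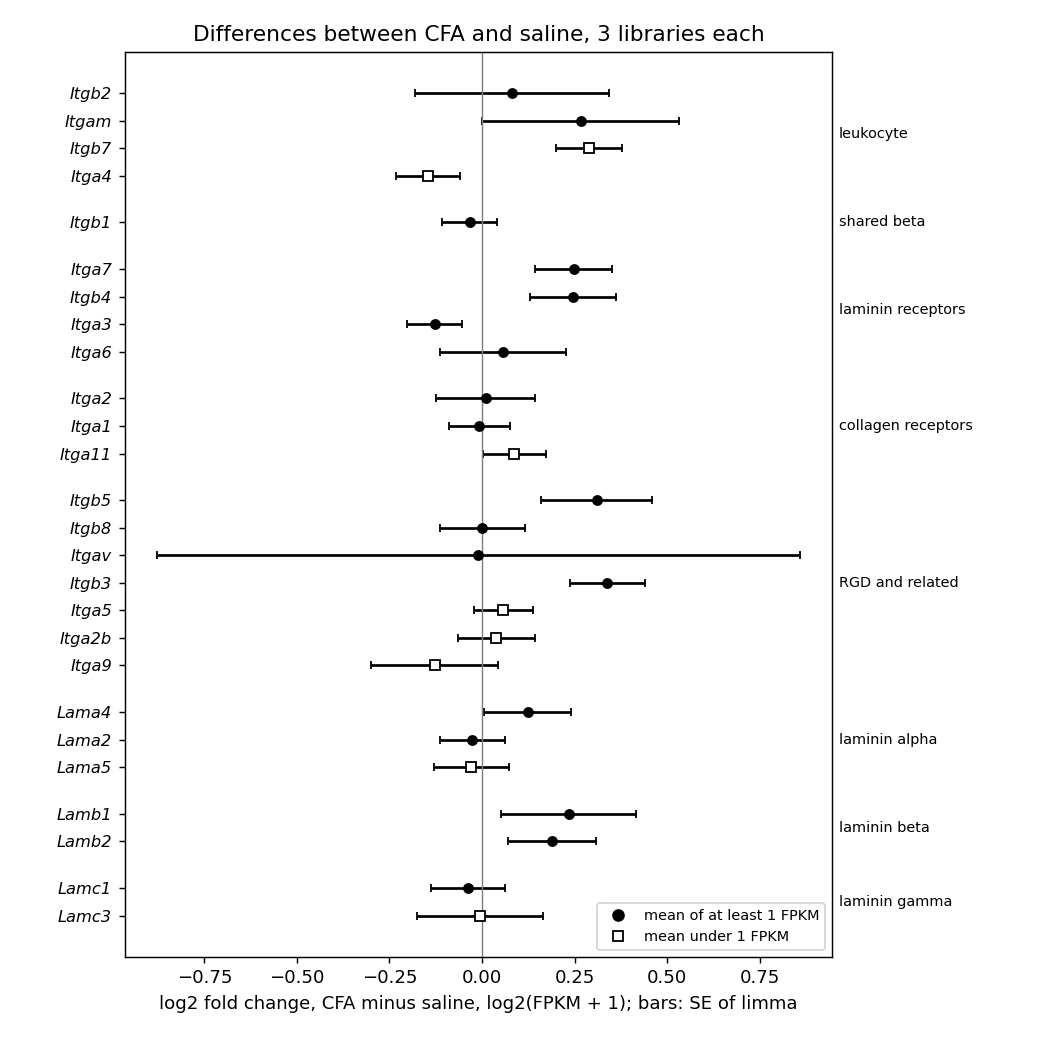
Log2 fold change of each subunit (CFA minus saline, log2(FPKM + 1)) with the standard error of limma, by class. Filled points have a mean of at least 1 FPKM and open squares less. Itgb3, Itgb5, Itgb7, Itgam, Itga7 and Itgb4 lie farthest right, Itgav has by far the widest bar, and no subunit was called.

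Laminin chains overlapped between CFA and saline in 7 of 7 cases, and none of the 5 tested was below 0.05 unadjusted, beside 14.7% of all rows without overlap and 8.32% of genes tested below 0.05. Lamb1, the β1 chain of laminin-211 and laminin-411, was the highest laminin gene, on chromosome 12 at 31265234 to 31329644. It stood at 14.4, 12.8 and 19.5 FPKM with CFA, against 15.7, 12.3 and 10.99 with saline (log2 fold change 0.23, SE 0.183, limma adjusted p = 0.726). CFA replicate 3 was highest, and without the 2 libraries numbered 3 the log2 fold change was −0.04.

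Lamb2, the β2 chain found at synapses and in vessel walls, averaged 8.47 ± 1.29 FPKM with CFA and 7.28 ± 0.574 with saline (log2 fold change 0.19, SE 0.119, limma adjusted p = 0.694). That log2 fold change was 0.080 without CFA replicate 3 and 0.023 without the 2 libraries numbered 3. Lamc1, the γ1 chain of most laminins, stood at 8.16, 9.62 and 8.81 FPKM with CFA, against 8.90, 8.39 and 10.1 with saline (log2 fold change −0.04, SE 0.0992). In FPKM, Lamc1 lay below Lamb1 in all 6 libraries and above Lamb2 in 5 of 6. Lamc3 was at 0.283 to 0.999 FPKM with CFA and 0.467 to 0.730 with saline.

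The alpha chains lay below Lamb1, Lamb2 and Lamc1 in each library. Lama4, of endothelial and nerve basement membranes, was highest among them in all 6 libraries, at 3.00, 3.47 and 4.01 FPKM with CFA against 3.49, 2.93 and 2.93 with saline. Lama2, the α2 chain of the Schwann cell basement membrane, averaged 2.41 ± 0.158 FPKM with CFA and 2.47 ± 0.151 with saline (log2 fold change −0.03, SE 0.0887). Lama5 lay at 0.466 to 0.686 FPKM with CFA and 0.452 to 0.639 with saline. Within the alpha chains Lama4 made up 52.5% to 55.2% of the summed FPKM with CFA and 47.3% to 53.0% with saline, and within Lamb1 and Lamb2 the share of Lamb1 was 62.8% to 66.2% with CFA and 62.3% to 66.9% with saline. Both shares overlapped between groups.

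**Figure D5:**
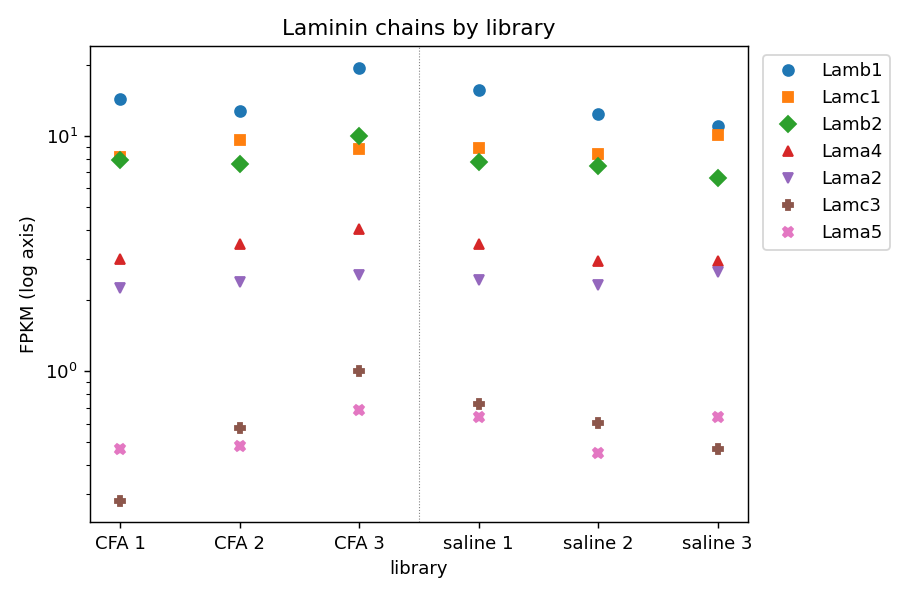
FPKM (log y axis) of 7 laminin chains in the 3 CFA and 3 saline libraries, 1 symbol per chain. Lamb1 is highest, Lama4 and Lama2 lie at 2.25 to 4.01 FPKM, and the order of the chains is nearly the same in all libraries.

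Partners of laminin in the membrane were also compared. Of 9 tested basement membrane genes, such as nidogens, perlecan, agrin and type IV collagens, none was below 0.05 unadjusted, beside 8.32% of all genes tested. Nid2, a nidogen that links laminin to collagen IV, had the smallest p at 4.71, 4.09 and 5.13 FPKM with CFA against 4.63, 3.27 and 3.29 with saline (limma adjusted p = 0.652). Of 7 tested laminin receptors outside the integrin family, such as dystroglycan and its complex, none was below 0.05 unadjusted, beside the same 8.32%. Rpsa, the laminin receptor that is also a ribosomal protein, stood at 131, 96.9 and 130 FPKM with CFA against 105, 94.9 and 91.7 with saline (limma adjusted p = 0.621). Itgb3bp, the centromere protein gene picked by its letters, averaged 3.32 ± 0.328 FPKM with CFA and 3.40 ± 0.206 with saline.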

How the data were processed

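RNA of 6 mouse trigeminal ganglion libraries was analysed, 3 per group. The authors deposited FPKM per gene, per the file headers, in 1 table of 13673 rows. Per the submitters' processing notes the genome build was GRCm38. No source used here names the aligner, the quantification tool or the use of strand. The larger of both group means was 0.501 FPKM or more in each row, to the digits given. A search for whole-read steps over 300 genes per library gave a strongest strength of 0.176, where 1 means whole multiples. Depth is therefore unknown.

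Genes averaging 1 FPKM or more over the 6 libraries were compared as log2(FPKM + 1) with limma 3.58.1 in R 4.3.3 (eBayes with trend, no covariate). P-values were two-sided and adjusted by Benjamini-Hochberg over these 12238 genes, and an adjusted p below 0.05 made a call. Subunits under 1 FPKM were taken from the same fit over all 13673 rows. The code was tested on simulated data. Groups came from the labels. Alternatives changed the pseudocount, filter, scaling, variance model, replicate block or libraries. Members, lists and the rule for named genes (subunits whose groups did not overlap, those at an unadjusted p below 0.05, the highest of each class, Itgb2 and Itgam) were chosen with earlier results of these data known. Adding the comparison without CFA replicate 2 and saline replicate 3, and naming Itgav by its library pattern, followed the values. Exons and transcripts came from GENCODE M21. Figures were drawn with matplotlib 3.10.9.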

Additional observations from a re-analysis of the deposited data

How the results depend on the processing

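No subunit was called under any alternative run, which covered the pseudocount, the filter, 3 scalings, 2 variance models, the block and libraries left out. Genes called over the whole table numbered 7, with 13 under robust variances and 5 to 21 when 1 library, or CFA replicate 2 with saline replicate 3, was left out. That joint omission was chosen after seeing the data and gave 21 calls and 4 subunits at an unadjusted p below 0.05. Subunits below 0.05 numbered 2 (Itgb3 and Itga7), but 1 with a mean of at least 5 FPKM (Itga7), 1 with a common library total, median-of-ratios factors, quantile normalization, no trend or robust variances (Itgb3), and 1 without the 2 libraries numbered 3 (Itgam). They numbered 1 to 4 when 1 library, or CFA replicate 2 with saline replicate 3, was left out. Same-numbered libraries of both groups had correlations of deviations of 0.08, 0.11 and −0.05, and the other pairs −0.18 to 0.11. The labels do not say whether the numbers pair samples, and 3 libraries a group cannot settle it. With the replicate number as a block 1 gene was called, 1 subunit (Itgb3) was below 0.05 unadjusted, and CFA replicates 1 and 2, but not 3, correlated best with their own number.

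Under the same omissions the median log2 fold change was −0.0054 to 0.32 for leukocyte chains, 0.018 to 0.085 for matrix-receptor chains and −0.035 to 0.15 for laminin chains. Without the 2 libraries numbered 3 the leukocyte median was 0.36, and among laminin chains of at least 5 FPKM the median was 0.19. Of 418 single-subunit values under alternatives, 378 kept their direction and side of the threshold and 40 changed sign. The cause was not tested. Itgb8 was −0.0017, −0.0070 and −0.017 under a common total, median-of-ratios factors and quantile normalization, and Itgav 0.076 with a pseudocount of 0.1. Without the 2 libraries numbered 3, Itga2b was −0.033, Itga1 0.016, Itga6 −0.12, Lamb1 −0.036 and Lamc1 0.032, and without a change of sign Itgav was −1.11, Lamc3 −0.23, Itgb2 0.45 and Itgb8 0.092. Without CFA replicate 2 and saline replicate 3, Itgb8 was −0.043, Itga2 −0.054, Itga1 0.0020, Lama2 0.0071 and Lama5 0.028. When 1 library, or CFA replicate 2 with saline replicate 3, was left out, log2 fold changes ran from −0.068 to 0.010 for Itgb1, from −0.096 to 0.058 for Itgb8, from −0.72 to 0.85 for Itgav, from −0.0048 to 0.12 for Itga2b, from −0.22 to 0.048 for Itga9 and from −0.10 to 0.11 for Itga2. They ran from −0.040 to 0.010 for Itga1, from −0.14 to 0.17 for Itga6, from −0.060 to 0.0071 for Lama2, from −0.094 to 0.028 for Lama5, from −0.092 to 0.029 for Lamc1, from −0.17 to 0.15 for Lamc3 and from −0.12 to 0.33 for Itgb2. Itgb3, Itgb7, Itga7, Itga3, Itga4, Itgam, Itgb4, Itgb5, Itga5, Itga11, Lama4 and Lamb2 kept their sign under each alternative run. Depth is unknown, so the counting error of subunits near 1 FPKM cannot be given.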
